A study of Homo sapiens with 12 samples.

Results

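The genes described here are 30 genes of cholesterol and fatty acid synthesis, taken by gene symbol from the 58302 genes of the table, and all 30 were expressed well enough to be tested. They comprise 7 enzymes of the mevalonate and isoprenoid steps, 11 of the squalene and sterol steps, 5 regulators and carriers of sterol, and 7 enzymes of fatty acid synthesis and desaturation. RNA was sequenced from 12 libraries of TPC1, a human papillary thyroid carcinoma cell line with a RET rearrangement, and of lines derived from it, with 3 libraries a line. TPC1 itself was labelled wild type for Dicer1, and the clones D11, WB1 and TD5 were labelled Dicer1 (+/−), each grown from a single cell after transient CRISPR-Cas9 editing of TPC1 and each with a heterozygous deletion of its own. All lines were grown in the same serum-containing medium without further treatment, and each heterozygous line was 1 clone, so that an effect of the edited allele and a property of the clone cannot be told apart. The reference was the parental TPC1 population, and no unedited clone was among the libraries.

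Mammalian cells make cholesterol from acetyl-CoA through mevalonate, farnesyl diphosphate, squalene and lanosterol, and they make fatty acids from the same precursor. Both routes are driven by the SREBP transcription factors, which stay in the endoplasmic reticulum when sterols are plentiful, held by the INSIG proteins, and reach the nucleus when sterols are scarce. DICER1 is the ribonuclease that releases mature miRNAs from their hairpin precursors, and the SREBP genes themselves carry the hairpins of the miR-33 family, known as repressors of sterol export.

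In all 3 clones the RNA of INSIG1, itself an SREBP target whose protein holds SREBP back when sterols are plentiful, rose over TPC1 by 1.58 to 1.69-fold. INSIG2, its relative, rose by at least 1.5-fold in WB1 and TD5 and by 1.47-fold in D11. No difference in INSIG2 between clones passed the test. STARD4, a carrier of cholesterol between membranes, rose by at least 1.5-fold in D11 and WB1. With correction for GC content STARD4 was under 1.5-fold in both, as was INSIG2 in WB1. Of the fatty acid enzymes, SCD, which makes monounsaturated fatty acids, rose by at least 1.5-fold in WB1 and TD5. The rises of SCD in WB1 and of INSIG2 in TD5 did not pass when certain single libraries were left out. ELOVL6, which lengthens saturated fatty acids, rose by 1.67-fold in D11 and less in WB1 (1.36-fold) and TD5 (1.26-fold). In TD5, SREBF1 rose and EBP, a sterol isomerase, fell, and TD5 differed from D11 in both genes by the test between clones. The mevalonate enzymes and most other sterol enzymes had changes of under 1.5-fold in all 3 clones.

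A gene was called where limma gave a Benjamini-Hochberg adjusted p under 0.05 over the 16027 tested genes and the change was at least 1.5-fold, on log2(value per 1000000 + 1). Values in single libraries are scaled reads, which are reads per gene after the authors brought each library to 20000000 reads. D11 had 3 members called higher and 0 lower, beside 2.89% and 1.95% of the genes tested. WB1 had 4 called higher and 0 lower, beside 3.39% and 1.59%. TD5 had 4 called higher and 1 lower, beside 1.12% and 1.48%. By adjusted p alone, without the fold, D11 had 10 members higher and 3 lower (19.9% and 13.4% of all tested genes), WB1 had 7 and 4 (18.6% and 12.3%), and TD5 had 5 and 1 (5.32% and 6.57%). Each clone's libraries all lay above those of TPC1 for 11 (D11), 8 (WB1) and 10 (TD5) members. The shares of all tested genes were 29.5%, 26.5% and 11.9%. The libraries all lay below for 4, 4 and 1 members, beside 21.2%, 18.8% and 14.6%. By the F statistic over the 4 lines, 16 of the 30 members had an adjusted p under 0.05, which is 53.3% of them, beside 44.6% of all tested genes. Over the 30 members the median log2 fold changes of D11, WB1 and TD5 were 0.09, 0.03 and 0.10, beside 0.05, 0.06 and 0.0006 over all tested genes. These medians were small against the effect of settings, as with median-of-ratios scaling that of D11 was 0.03 and that of WB1 −0.03, and with GC correction they were 0.15 and 0.10. In bulk RNA, fewer cells with a transcript and less transcript per cell cannot be told apart.

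DICER1, the edited gene, had 1360, 1129 and 1101 scaled reads in TPC1, 977, 1051 and 1093 (D11), 881, 939 and 815 (WB1) and 643, 627 and 809 (TD5), so that all clone libraries were below TPC1. It had 86.9%, 73.4% and 57.9% of its TPC1 mean in D11, WB1 and TD5 and was called lower in TD5 only, as its log2 fold changes were −0.19 (SE 0.10, limma adjusted p = 0.138), −0.43 (SE 0.10, adjusted p = 0.00404) and −0.77 (SE 0.10, adjusted p = 9.02e-05). With the libraries corrected for GC content, DICER1 in D11 had −0.36 (adjusted p = 0.00167), which passed on adjusted p. The library sums lay between 20009833 and 20014191, from an estimated 12700000 to 21020000 reads. Of the thyroid markers, TSHR, SLC5A5 and NKX2-1 were at 0 in all 12 libraries and PAX8 was high in all lines (means of 7800 to 9363 scaled reads), TG had means of 16 to 21, and FOXE1 was called lower in all 3 clones. Of the epithelial markers, KRT8 and KRT18 were high in all lines (means of 10950 to 14750 and 5456 to 7580), and EPCAM, CDH1 and KRT19 were near 0. Immune and endothelial markers other than CD68 had line means of at most 3.67. CD68 had line means of 1047 to 1407. Of the fibroblast markers, DCN was at 0, COL1A2 and COL3A1 had line means of at most 1.33 and COL1A1 had 53.3 to 84.3, while LUM had means of 71.3 in TPC1, 0 in D11, 166 in WB1 and 0.667 in TD5. The part of LUM in the results on the members was not tested.

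**Figure D1:**
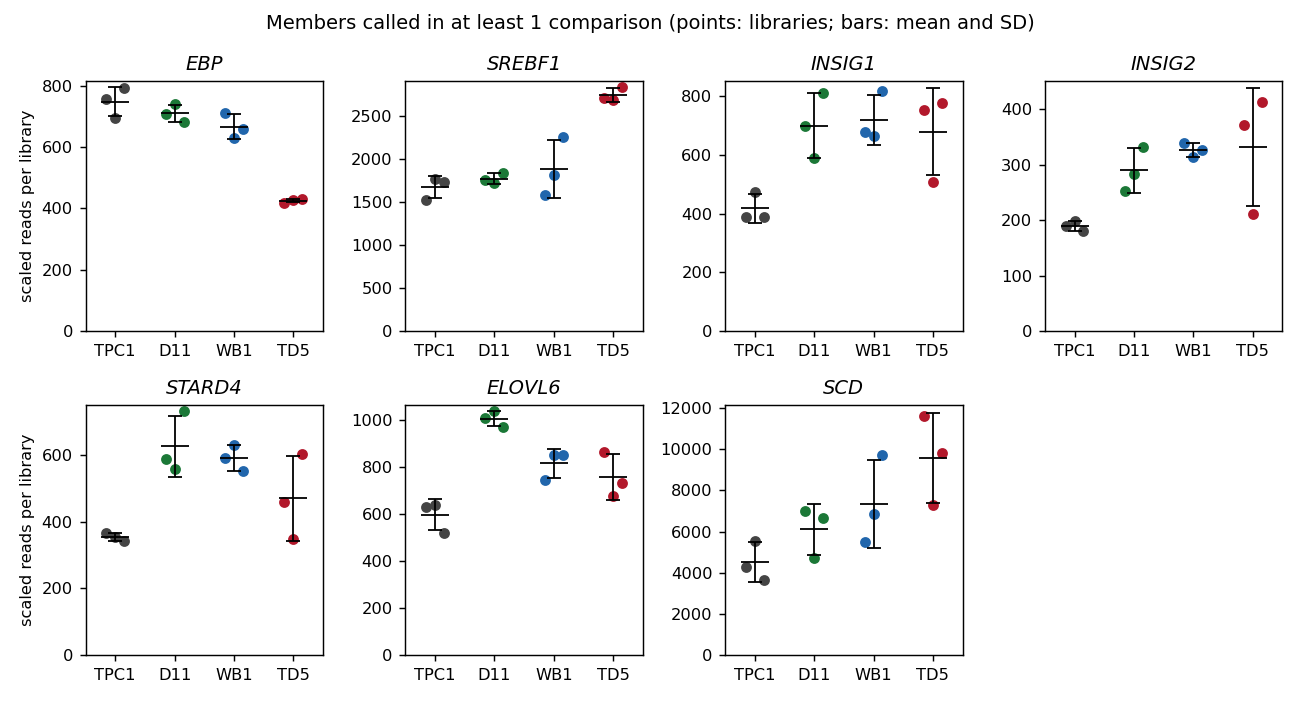
Scaled reads (vertical axis, from 0, own scale in each panel) of the 7 members called in at least 1 comparison, by line. Points are single libraries, horizontal bars the mean and vertical bars the SD of 3 libraries. All 9 clone libraries lie above the 3 TPC1 libraries for INSIG1, INSIG2 and ELOVL6, and the 3 TD5 libraries lie apart from all others for EBP and SREBF1.

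Among the regulators, INSIG1 (ENSG00000186480, chr7:155297776-155310235 on the plus strand, GRCh38) had 390, 474 and 389 scaled reads in TPC1. The D11 libraries had 697, 589 and 812, the WB1 libraries 677, 665 and 817, and the TD5 libraries 753, 508 and 777. Every clone library was thus above every TPC1 library, and TD5 replicate 2 was the lowest of the 9. The log2 fold change was 0.71 in D11 (SE 0.14, limma adjusted p = 0.00187), 0.76 in WB1 (SE 0.14, adjusted p = 0.00118) and 0.66 in TD5 (SE 0.14, adjusted p = 0.00631). Without TD5 replicate 1 or replicate 3 the change in TD5 was 0.57 or 0.55, just under the 1.5-fold minimum. Of the 3 clone pairs none differed for INSIG1 by the test, with 95% intervals of the log2 difference of −0.26 to 0.35 for WB1 against D11, −0.35 to 0.25 for TD5 against D11 and −0.40 to 0.20 for TD5 against WB1.

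INSIG2 (ENSG00000125629, chr2:118088452-118110997, plus strand), which like INSIG1 retains the SREBP complex in the endoplasmic reticulum, had 189, 198 and 181 scaled reads in TPC1. The D11 libraries had 253, 284 and 333, the WB1 libraries 340, 315 and 326, and the TD5 libraries 371, 211 and 413. The clone libraries did not overlap with TPC1, although TD5 replicate 2, at 211, was close to the highest TPC1 library, at 198. The log2 fold change was 0.73 in WB1 (SE 0.17, adjusted p = 0.0041) and 0.70 in TD5 (SE 0.17, adjusted p = 0.0113). In D11 it was 0.56 (SE 0.17, adjusted p = 0.0175), under 1.5-fold on this scale. INSIG2 no longer passed in TD5 if TPC1 replicate 3, TD5 replicate 1 or TD5 replicate 3 was left out (adjusted p = 0.0522, 0.0598 and 0.0529). Its transcript has 36.3% GC, and with the libraries corrected for GC content the change in WB1 was 0.54 (adjusted p = 0.00687), under 1.5-fold, and that in D11 was 0.30 and did not pass (adjusted p = 0.115).

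STARD4 (ENSG00000164211, chr5:111496033-111512590, minus strand) had 366, 354 and 342 scaled reads in TPC1, 589, 560 and 733 in D11 and, in WB1, 593, 631 and 552. All D11 and WB1 libraries were above TPC1. In TD5 the values were 460, 350 and 603, and replicate 2 lay within the TPC1 range. STARD4 thus had a log2 fold change of 0.78 in D11 (SE 0.14, adjusted p = 0.000789), 0.71 in WB1 (SE 0.14, adjusted p = 0.00158) and 0.36 in TD5 (SE 0.14, adjusted p = 0.103). The antisense gene STARD4-AS1 overlaps STARD4 and had a mean of 268.6 scaled reads beside 511.1 for STARD4. At 34.4% the STARD4 transcript has the lowest GC content of the members, and with GC correction the change was 0.49 in D11 and 0.51 in WB1, under 1.5-fold (adjusted p = 0.00111 and 0.00069). Whether reads were counted by strand is not given in the sources used here, so the reads of the pair may be mixed.

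SREBF1 (ENSG00000072310, chr17:17810399-17837002, minus strand), the gene of the SREBP that mainly drives fatty acid synthesis, had 1529, 1769 and 1736 scaled reads in TPC1. The D11 libraries had 1758, 1717 and 1839, the WB1 libraries 1585, 1818 and 2257, and the TD5 libraries 2709, 2683 and 2842. The 3 TD5 libraries were the highest of the 12, while D11 and WB1 overlapped with TPC1. The log2 fold change against TPC1 was 0.71 in TD5 (SE 0.09, adjusted p = 0.000139), 0.08 in D11 (95% interval −0.12 to 0.28) and 0.15 in WB1 (95% interval −0.04 to 0.35). The gene overlaps RAI1 on the opposite strand, which had a mean of 905.2 scaled reads and a log2 fold change of 0.24 in TD5 (adjusted p = 0.063). Of the 33 other tested genes within 1 Mb of SREBF1, 0 had a fold change in TD5 as high, and their median was −0.03.

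SREBF2, whose SREBP mainly drives sterol synthesis, had 2416 to 2654 scaled reads in TPC1, 2351 to 2737 in D11, 2081 to 3043 in WB1 and 2711 to 3352 in TD5. Its log2 fold changes of 0.04, 0.02 and 0.23 did not pass the test (adjusted p = 0.789, 0.92 and 0.177), and their 95% intervals lay within 1.5-fold. Both SREBP genes hold a miR-33 hairpin in intron 16, and the mature 5p sequences are shown because these miRNAs, processed by DICER1, share their seed. The seed, bases 2 to 8, is in capitals (RefSeq, GRCh38.p14).
miR-33b-5p, chr17:17813897-17813916, minus strand, in SREBF1: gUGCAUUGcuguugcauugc
miR-33a-5p, chr22:41900949-41900969, plus strand, in SREBF2: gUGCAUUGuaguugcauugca
Mature miRNAs were not measured in these mRNA libraries, so the rise of SREBF1 in TD5 says nothing on the level of miR-33b. ABCA1, a sterol exporter known as a miR-33 target and named here after its values were seen, did not pass the test in D11 (0.28, adjusted p = 0.164), WB1 (0.26, adjusted p = 0.204) or TD5 (0.10, adjusted p = 0.722).

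The 5 regulators and carriers had medians of 0.56 (D11), 0.71 (WB1) and 0.66 (TD5) on the log2 scale. By the F statistic 4 of the 5 differed between the lines, as did 44.6% of all tested genes. Each median is the value of a single gene, INSIG2 in D11, STARD4 in WB1 and INSIG1 in TD5. SREBF1 and SREBF2 had only 0.08 and 0.04 in D11 and 0.15 and 0.02 in WB1. With GC correction INSIG2 had 0.30 in D11 and STARD4 had 0.51 in WB1. The enzyme groups had smaller medians. The mevalonate and isoprenoid steps had −0.001, 0.005 and 0.06 in D11, WB1 and TD5. The squalene and sterol steps had 0.18, −0.02 and 0.05, and the fatty acid steps had 0.10, 0.03 and 0.19.

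**Figure D2:**
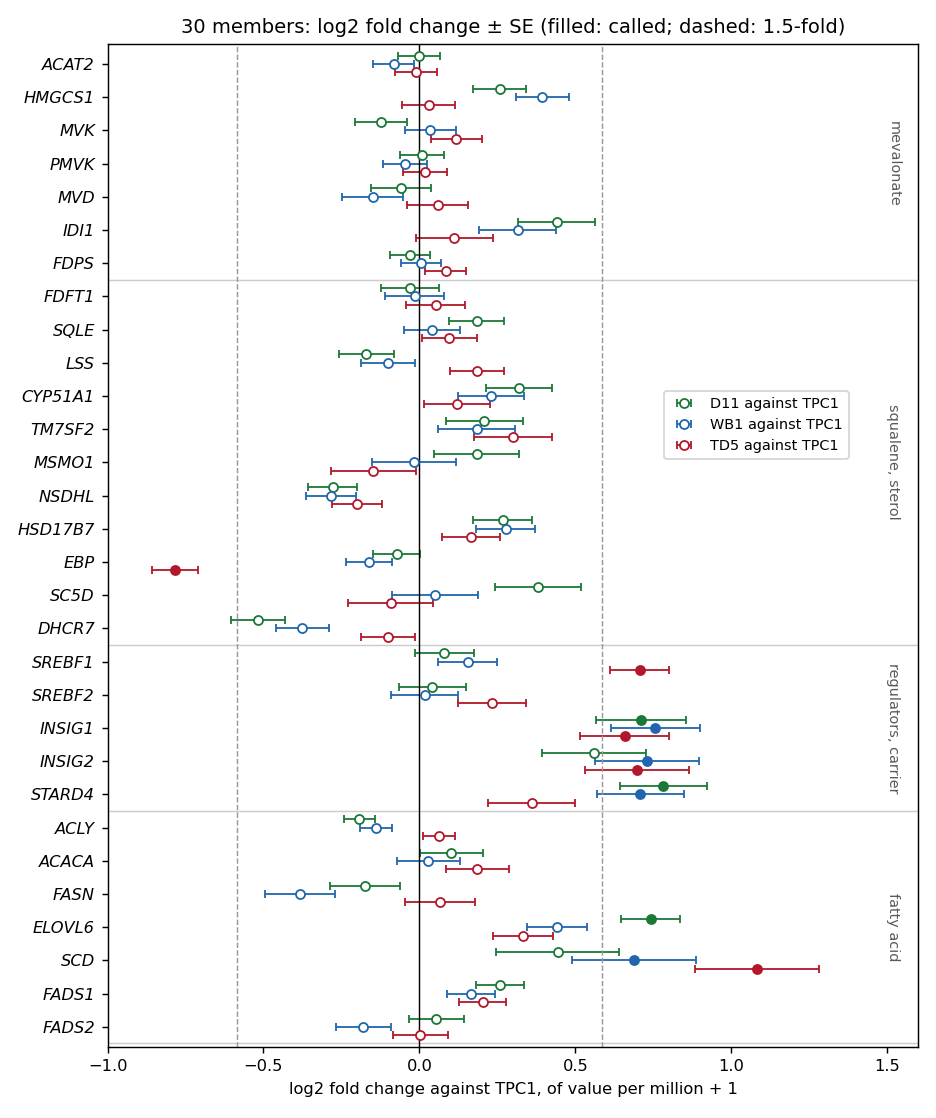
Log2 fold change against TPC1 (horizontal axis, of value per 1000000 + 1) of the 30 members, grouped by role, in D11 (green), WB1 (blue) and TD5 (red). Points are estimates of the fit with their SE as bars, filled points are called, and dashed lines mark 1.5-fold. The INSIG1 and INSIG2 points lie to the right in all clones, and EBP in TD5 is the only filled point to the left. The mevalonate genes lie near 0 except HMGCS1 and IDI1, which lie to the right in D11 and WB1.

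Of the 7 mevalonate and isoprenoid enzymes, 0 were called in any clone. HMGCS1, which condenses acetoacetyl-CoA and acetyl-CoA, had 786, 726 and 805 scaled reads in TPC1, then 915, 864 and 1006 (D11), 974, 1011 and 1078 (WB1) and 837, 693 and 843 (TD5). The D11 and WB1 libraries were above TPC1, with log2 fold changes of 0.26 (SE 0.08, adjusted p = 0.0276) and 0.39 (SE 0.08, adjusted p = 0.0028) respectively, whereas TD5 overlapped with TPC1 (0.03, adjusted p = 0.869). The difference of TD5 from WB1 was −0.36 (SE 0.08, adjusted p = 0.0104). With GC correction HMGCS1 did not pass in D11 (0.06, adjusted p = 0.614) and had 0.24 in WB1 (adjusted p = 0.0318). IDI1, the isopentenyl diphosphate isomerase, was higher in D11 at 0.44 (SE 0.12, adjusted p = 0.0127) and did not pass in WB1 (0.32, adjusted p = 0.0607) or TD5 (0.11, adjusted p = 0.613). With GC correction IDI1 had 0.22 in D11 and did not pass (adjusted p = 0.0643).

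The other 5 of this group did not pass the test in any clone against TPC1, and all of their 95% intervals lay within 1.5-fold. ACAT2, the cytosolic thiolase, had 1985 to 2414 scaled reads over the 12 libraries. MVK and PMVK, the kinases of mevalonate and phosphomevalonate, had 359 to 457 and 747 to 888. MVD, the decarboxylase that follows, had 327 to 426, and FDPS, farnesyl diphosphate synthase, had 2572 to 3106. TCP1 lies opposite ACAT2 with a mean of 9522 scaled reads, and RUSC1-AS1 lies opposite FDPS with 1724, so these levels may hold reads of the partner.

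Among the 11 enzymes from squalene to cholesterol, EBP was the only one called. EBP (ENSG00000147155, chrX:48521799-48528716, plus strand), the isomerase that moves the double bond of the sterol ring, had 757, 696 and 791 scaled reads in TPC1. The D11 libraries had 707, 739 and 682, the WB1 libraries 710, 631 and 659, and the TD5 libraries 419, 426 and 431. The TD5 libraries were the lowest 3 of the 12. EBP fell in TD5 by a log2 fold change of −0.78 (SE 0.07, adjusted p = 2.67e-06), so that TD5 held 56.9% of the TPC1 mean, beside 94.8% in D11 and 89.1% in WB1. Of the 37 other tested genes within 1 Mb of EBP, 0 had a fold change as low in TD5, and their median was −0.0001.

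DHCR7, the last reductase before cholesterol, had 1262, 1412 and 1403 scaled reads in TPC1, then 1040, 835 and 962 (D11), 940, 1045 and 1151 (WB1) and 1262, 1297 and 1236 (TD5). All D11 and WB1 libraries were below TPC1, as for 21.2% and 18.8% of all tested genes. The log2 fold changes were −0.52 in D11 (SE 0.09, adjusted p = 0.000444) and −0.38 in WB1 (SE 0.09, adjusted p = 0.00408), which is under 1.5-fold, and −0.10 in TD5 (adjusted p = 0.495). Without D11 replicate 1, DHCR7 was called lower in D11 (−0.59, adjusted p = 0.000526). With GC correction it had −0.36 in D11 (adjusted p = 0.00154) and −0.24 in WB1 (adjusted p = 0.018). TD5 was above D11 by 0.42 (SE 0.09, adjusted p = 0.00266).

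LSS, which closes the sterol ring to lanosterol, had 1550, 1656 and 1565 scaled reads in TPC1, then 1556, 1270 and 1421 (D11), 1282, 1518 and 1668 (WB1) and 1868, 1734 and 1829 (TD5). TD5 lay above all other libraries and differed from D11 by 0.35 (SE 0.09, adjusted p = 0.00827) and from WB1 by 0.29 (SE 0.09, adjusted p = 0.0389), while the difference from TPC1 of 0.18 had an adjusted p of 0.184. NSDHL, a dehydrogenase of sterol demethylation, was lower by −0.28 in both D11 (adjusted p = 0.0141) and WB1 (adjusted p = 0.0134), and had −0.20 in TD5 (adjusted p = 0.113). HSD17B7, its partner reductase, was higher by 0.27 in D11 (adjusted p = 0.0378) and 0.28 in WB1 (adjusted p = 0.0345). With the replicate number as a block, HSD17B7 in D11 (adjusted p = 0.0519) and LSS in TD5 against WB1 (adjusted p = 0.0592) no longer passed, and with GC correction LSS in TD5 against WB1 had 0.20 (adjusted p = 0.11).

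CYP51A1, the lanosterol demethylase, was higher in D11 by 0.32 (adjusted p = 0.0286), and SC5D, a sterol desaturase, by 0.38 (adjusted p = 0.0423), and neither passed in WB1 or TD5. With GC correction both were smaller in D11 and did not pass, CYP51A1 at 0.18 (adjusted p = 0.163) and SC5D at 0.14 (adjusted p = 0.358). FDFT1, squalene synthase, ranged from 1512 to 1957 scaled reads over the 12 libraries, and SQLE, squalene epoxidase, from 1859 to 2482. MSMO1, the sterol methyl oxidase, ranged from 443 in TD5 replicate 2 to 850 in D11 replicate 3. TM7SF2, a sterol reductase, had only 31 to 50 scaled reads, the lowest level of the 30 members, and shares its locus with VPS51 (mean 764.8) on the same strand. These 4 had no change that passed the test in a clone against TPC1. On the log2 scale after addition of 1, their 95% intervals lay within 1.5-fold. At the low level of TM7SF2, the added 1 makes fold changes smaller. The TD5 mean of TM7SF2 was 136.6% of its TPC1 mean, while the fit gave a log2 fold change of 0.30, or 1.23-fold. For TM7SF2 the intervals therefore do not exclude a 1.5-fold change in the RNA itself.

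In the fatty acid group, SCD (ENSG00000099194, chr10:100347233-100364826, plus strand) showed the largest change of the members. TPC1 had 4283, 5562 and 3647 scaled reads, D11 6999, 4698 and 6659, WB1 5493, 6856 and 9706, and TD5 11619, 7271 and 9823. All TD5 libraries were above TPC1, while D11 replicate 2 and WB1 replicate 1 fell within the TPC1 range. SCD rose by 1.08 on the log2 scale in TD5 (SE 0.20, adjusted p = 0.00184), a 2.12-fold rise, and 0.69 in WB1 (SE 0.20, adjusted p = 0.0155). In D11 it was 0.44 (SE 0.20, adjusted p = 0.0935). If TPC1 replicate 3 or WB1 replicate 3 was left out, WB1 was no longer called (0.55, adjusted p = 0.0921, and 0.47, adjusted p = 0.0753). Of the 29 other tested genes within 1 Mb of SCD, 0 had a fold change in TD5 as high and their median was −0.05, but OLMALINC had 0.36, 0.68 and 0.93 in D11, WB1 and TD5 (adjusted p = 0.000667 in TD5) and SEC31B had 0.77, 0.99 and 0.43 (adjusted p = 0.0382 in TD5). Both genes are named after their values were seen.

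ELOVL6 (ENSG00000170522, chr4:110045846-110199199, minus strand) had 630, 639 and 520 scaled reads in TPC1, then 1010, 1037 and 972 (D11), 744, 851 and 850 (WB1) and 865, 675 and 730 (TD5). The D11 libraries were the highest 3 of the 12, and the TPC1 libraries were the lowest 3. The log2 fold change was 0.74 in D11 (SE 0.10, adjusted p = 5.04e-05), 0.44 in WB1 (SE 0.10, adjusted p = 0.00305) and 0.33 in TD5 (SE 0.10, adjusted p = 0.0324). TD5 was lower than D11 by −0.41 (SE 0.10, adjusted p = 0.00627). INSIG1, INSIG2 and ELOVL6 were the 3 members with all 9 clone libraries above all TPC1 libraries, beside 5.17% of all tested genes, and 0 members had all 9 below, beside 6.51%.

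ACLY, which supplies cytosolic acetyl-CoA, was the most abundant member, with 12964, 13468 and 12853 scaled reads in TPC1, then 11650, 11198 and 11509 (D11), 12122, 11332 and 12222 (WB1) and 13904, 14017 and 13127 (TD5). D11 and WB1 were below TPC1 by −0.19 (SE 0.05, adjusted p = 0.00865) and −0.14 (SE 0.05, adjusted p = 0.044), and TD5 was above D11 by 0.26 (SE 0.05, adjusted p = 0.00193). With GC correction ACLY passed against TPC1 neither in D11 (−0.11, adjusted p = 0.051) nor in WB1 (−0.08, adjusted p = 0.129), and with the replicate block it did not pass in WB1 (adjusted p = 0.0702). FASN, the fatty acid synthase, had 4685, 4385 and 5607 in TPC1, then 4548, 4508 and 3902 (D11), 3046, 3920 and 4333 (WB1) and 4573, 5435 and 5318 (TD5). All WB1 libraries were below TPC1, at −0.38 (SE 0.11, adjusted p = 0.0168), and the other clones overlapped with it. FASN in WB1 had −0.21 with GC correction and did not pass (adjusted p = 0.0517). FADS1, a desaturase of polyunsaturated fatty acids, was higher in D11 by 0.26 (SE 0.08, adjusted p = 0.0164). ACACA, acetyl-CoA carboxylase, with 2073 to 3069 scaled reads, and FADS2, a neighbouring desaturase gene with 426 to 615, passed in no clone.

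**Figure D3:**
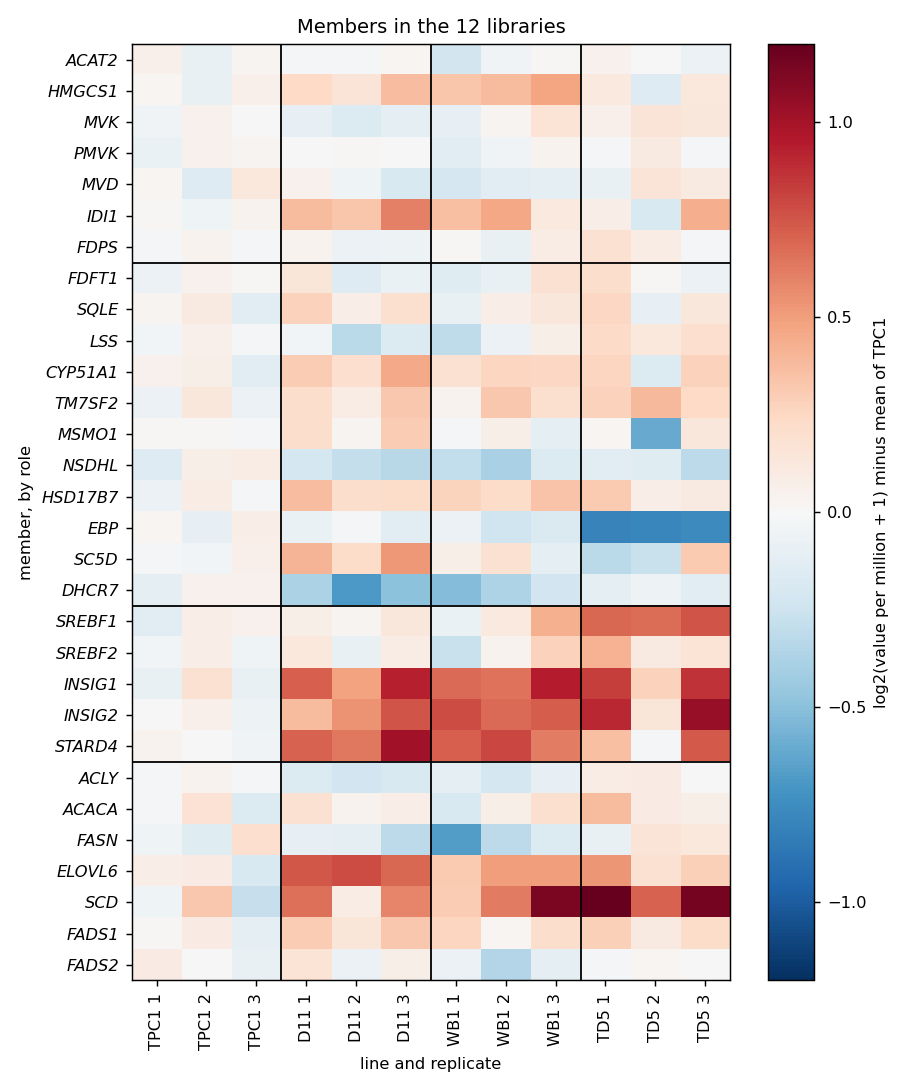
Log2(value per 1000000 + 1) minus the mean of the 3 TPC1 libraries (colour) for the 30 members (rows, by role) in the 12 libraries (columns, by line and replicate). The INSIG1, INSIG2, STARD4 and SCD rows are red in most clone libraries, TD5 replicate 2 is paler in several rows, and the EBP row is blue in the 3 TD5 columns.

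On the scale per 1000000 reads and per kilobase of transcript, which allows genes to be compared, ACLY had the highest level in TPC1 (152), followed by FDPS (96.6) and ACAT2 (76.4). SCD had 42.9 in TPC1 and 58.3, 70.0 and 91.2 in D11, WB1 and TD5. INSIG1 stood at 7.18 in TPC1 and at 11.7 to 12.4 in the clones, and INSIG2 at 2.66, 4.07, 4.59 and 4.65. SREBF1 had 17.1 in TPC1 and 28.0 in TD5, which is near the SREBF2 level of 28.3 in TD5. TM7SF2 was lowest at 1.07.

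Directly between the clones, the log2 difference was called for 3 members in TD5 against D11, beside 3.99% of all tested genes. These were EBP at −0.71 (SE 0.07, adjusted p = 5.34e-06), SREBF1 at 0.63 (SE 0.09, adjusted p = 0.000233) and SCD at 0.64 (SE 0.20, adjusted p = 0.0279). EBP was called in TD5 against WB1 as well, at −0.62 (SE 0.07, adjusted p = 4.85e-05), beside 2.33% of all tested genes. SREBF1 differed between TD5 and WB1 by 0.55 (SE 0.09, adjusted p = 0.00137), just under 1.5-fold. For D11 and WB1, limma called 0 members, beside 2.85% of all tested genes, and 0 passed on adjusted p alone. SCD in TD5 against D11 was not called without D11 replicate 2 (0.46, adjusted p = 0.147) or TD5 replicate 1 (0.49, adjusted p = 0.124).

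The fold changes of the members moved with the GC content of their transcripts. Over the 30 members Pearson's r between GC content and log2 fold change was −0.68, −0.61 and −0.11 for D11, WB1 and TD5, and over 15879 tested genes it was −0.41, −0.39 and −0.08, each from libraries shared by all genes. The 9 members under 45% GC had medians of 0.44, 0.39 and 0.12, and the other members −0.001, −0.02 and 0.08. Beside STARD4 and INSIG2 in WB1, GC correction left 1 more called difference under 1.5-fold, that of SREBF1 in TD5 against D11 (0.46, adjusted p = 0.000666). INSIG1 stayed at 0.65, 0.69 and 0.64 in the 3 clones, ELOVL6 in D11 at 0.60, SCD in TD5 at 1.08, SREBF1 in TD5 against TPC1 at 0.72 and EBP in TD5 at −0.75, all called.

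Libraries of the same line differed in the members as a group. D11 replicate 2 was the lowest of its line for 23 of the 30 members, beside 28.0% of all tested genes, and WB1 replicate 3 was the highest of its line for 19, beside 37.1%. TPC1 replicate 2 was the highest of TPC1 for 19, beside 27.3%, and TD5 replicate 2 was the lowest of TD5 for 15, beside 37.0%. After removal of the line means, the median Pearson's r over the 435 pairs of members was 0.20 across the 12 libraries, and over pairs of all tested genes it was 0.01. The closest pairs were IDI1 with STARD4 (r = 0.95), SQLE with SCD (0.93), and LSS with SREBF2 and MSMO1 with STARD4 (0.91 each). Without TD5 replicate 2 the median was 0.22, beside 0.02, and IDI1 with STARD4 had 0.91. These are descriptions over libraries that share their depth and scaling, and genes are not independent replicates.

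Promoter windows were found in the RefSeq table (GRCh38.p14) for 26 of the 30 members. FDFT1, SQLE, ACAT2 and FASN had no entry. On either strand, the sterol regulatory element TCACNCCAC was in 1 of the 26 windows of 300 bases, that of SREBF2, beside 1.07% of the 10793 windows of tested genes. CCAAT, the NF-Y motif, was in 19 of 26 (73.1%), beside 36.4%, and GGGCGG, the GC box bound by Sp factors, was in 25 of 26 (96.2%), beside 72.2%. The 7 called members held them in 0, 4 and 7 windows. No base belonged to more than 1 kind of motif in the windows shown. The GC box matches of INSIG1 at −126 to −121 and −121 to −116 from the start share a base. The sequences below lie upstream of the start outside annotated exons, 5′ to 3′ on the strand of the gene, with matches in capitals. They are those of the member called in all clones (INSIG1), the member with the largest change (SCD) and the members called against TPC1 in TD5 only (SREBF1, EBP).
INSIG1, chr7:155297628-155297775, plus strand: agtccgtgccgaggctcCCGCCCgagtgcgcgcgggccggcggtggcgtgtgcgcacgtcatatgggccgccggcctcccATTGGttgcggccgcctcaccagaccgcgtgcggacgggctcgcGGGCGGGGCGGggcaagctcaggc
SCD, chr10:100347033-100347232, plus strand: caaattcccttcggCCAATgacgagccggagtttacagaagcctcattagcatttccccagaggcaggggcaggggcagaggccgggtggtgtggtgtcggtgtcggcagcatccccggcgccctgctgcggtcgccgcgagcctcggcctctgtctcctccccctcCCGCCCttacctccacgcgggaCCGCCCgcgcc
SREBF1, chr17:17837003-17837202, minus strand: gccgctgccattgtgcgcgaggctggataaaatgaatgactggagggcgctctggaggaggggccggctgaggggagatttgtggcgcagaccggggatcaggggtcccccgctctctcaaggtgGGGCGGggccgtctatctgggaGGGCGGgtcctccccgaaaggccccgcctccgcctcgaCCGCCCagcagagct
EBP, chrX:48521599-48521798, plus strand: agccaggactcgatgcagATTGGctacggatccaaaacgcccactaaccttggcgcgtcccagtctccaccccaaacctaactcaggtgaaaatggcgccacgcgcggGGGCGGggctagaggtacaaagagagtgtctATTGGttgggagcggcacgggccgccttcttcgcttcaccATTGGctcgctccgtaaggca
The printed stretch holds 1 CCAAT and 3 GC box matches for INSIG1, 1 and 2 for SCD, 0 and 3 for SREBF1, and 3 and 1 for EBP. A match is a run of letters and not a measured binding site. Only exact matches within the windows were looked for, so inexact or more distant elements would be missed.

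Other genes of the pathways were taken as 4 lists of 54 genes, of which 52 were tested. Against TPC1, D11 had 0 of these called higher and 1 lower, beside 2.89% and 1.95% of all tested genes. WB1 had 1 and 0, beside 3.39% and 1.59%, and TD5 had 1 and 1, beside 1.12% and 1.48%. SCARB1, a receptor for high-density lipoprotein, had mean scaled reads of 690.7 (TPC1), 381.3 (D11), 487.7 (WB1) and 445.7 (TD5), and fell in D11 (−0.81, SE 0.11, adjusted p = 0.000103) and TD5 (−0.60, SE 0.11, adjusted p = 0.00238). LPIN1, a phosphatidate phosphatase of glycerolipid synthesis, had means of 1228, 1763, 1972 and 2008 and rose in WB1 (0.68, SE 0.13, adjusted p = 0.00146) and TD5 (0.70, SE 0.13, adjusted p = 0.00239). SCAP, which escorts SREBP out of the endoplasmic reticulum, was lower in D11 (−0.25, adjusted p = 0.0122) and WB1 (−0.23, adjusted p = 0.0205) and did not pass in TD5 (−0.14, adjusted p = 0.215). By adjusted p alone, D11 had 7 of the 52 higher and 11 lower, WB1 had 8 and 9, and TD5 had 6 and 4, beside the shares of all tested genes given above for the same threshold (19.9% and 13.4%, 18.6% and 12.3%, and 5.32% and 6.57%).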

How the data were processed

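RNA of the 12 libraries was made into stranded mRNA libraries and read in pairs. The authors used STAR 2.5.3a with GRCh38 and HTSeq 0.9.1 for reads per gene, then normalized every library to a total of 20000000. These deposited numbers are whole, rounded up after that scaling, and were treated as a score, not as counts, so the count test that the study names was not run. Reads per library were estimated from the spacing of the low values at 12700000 to 21020000, and 3 reads correspond to 3 to 5 scaled reads, which covers counting error only. Each value was taken per 1000000 of its library's sum. After addition of 1 and log2, limma 3.58.1 (R 4.3.3) was run with a variance trend and a mean for each of the 4 lines, over the 16027 genes that reached 1 per 1000000 in 3 or more libraries. Calls needed an adjusted p under 0.05 and 1.5-fold, and intervals are 95%. The fit was run on simulated data with independent libraries, the same relative spread for all genes and no trend with GC content. That run therefore says nothing on the GC trend or the shared library deviations seen here. Libraries were grouped by their titles and genotype labels. Nothing in the labels says how the 3 libraries of a line were grown, so p-values measure the spread between these libraries, which may be technical.

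The members and all lists were chosen with earlier results of these data known. All members and DICER1 are named, and of the other pathway genes those called in a clone, or else the gene of each list with the lowest adjusted p. Some genes that these rules or the marker lists would name are not reported here. Every library is given for the 12 members with the lowest adjusted p of the F statistic. Genes near SREBF1, EBP and SCD, and ABCA1, were looked at after values were seen. Gene positions, transcript lengths and GC content come from GENCODE for GRCh38, and 99.1% of tested genes had a GC content. Same-numbered libraries of TD5 and D11 correlated in their deviations from the line means at 0.11, 0.17 and 0.35, past the bar set for pairing, although no label states a pairing. The reported values come from the fit without a block, and those with the block are given where they differ in outcome. No other pair of lines had all 3 correlations of same-numbered libraries over 0.1. Libraries of unlike number correlated to a similar degree. TD5 and TPC1 had 0.28 (1 with 2), 0.26 (2 with 3) and 0.17 (3 with 1). Alternatives changed the pseudocount, the filter, the scaling, the thresholds, the libraries in the fit, the replicate block, corrections for GC content and length, voom on estimated reads, and left out each library. Python 3.11.15 with matplotlib 3.10.9 drew the figures.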

Additional observations from a re-analysis of the deposited data

Results flagged for a closer look

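A clone differed from another clone in its change against TPC1 for EBP, SREBF1 and SCD by the limma test of the difference itself. EBP was lower in TD5 than in D11 by a log2 difference of −0.711 (SE 0.0743, adjusted p = 5.34e-06) and than in WB1 by −0.623 (SE 0.0743, adjusted p = 4.85e-05), with the 3 TD5 libraries below all libraries of both. SREBF1 was higher in TD5 than in D11 by 0.626 (SE 0.0945, adjusted p = 0.000233), with the 3 TD5 libraries above the 3 of D11. SCD was higher in TD5 than in D11 by 0.639 (SE 0.198, adjusted p = 0.0279), with TD5 replicate 2 at 7271 scaled reads just above D11 replicate 1 at 6999.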

How the results depend on the processing

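Of the counts of called members and their medians, 231 of the values under other settings stayed near the reported ones and 20 moved. Many of the 231 had no room to move. A median could not change where the library left out belonged to a line outside the comparison, or under the replicate block. The 231 also hold the WB1 medians that changed sign, so the tally does not measure how firm the results are. Without a minimum fold the counts were 13 in D11, 11 in WB1, 10 in TD5 against D11 and 7 in TD5 against WB1. Beside them stood 33.3%, 30.9%, 23.2% and 13.6% of all tested genes. With a minimum of 2-fold the counts were 0 in D11, WB1, TD5 against D11 and TD5 against WB1, and 1 in TD5 (SCD). The shares of all tested genes were then 0.836%, 0.799%, 0.861%, 0.474% and 0.63%. GC correction, alone or with the replicate block, left 2 in WB1, beside 4.49% of all tested genes. A pseudocount of 4 left 0 in TD5 against WB1, beside 0.874%. Leaving out 1 library gave 3 to 5 called members in D11 (5 where TPC1 replicate 2 was dropped, and 4 higher with 1 lower, DHCR7, where D11 replicate 1 was), 3 to 4 in WB1, 3 to 5 in TD5 (3 without TD5 replicate 1 or 3), 2 to 5 in TD5 against D11 (5 without TD5 replicate 3), and 0 to 3 in TD5 against WB1 (0 without WB1 replicate 1, 3 without WB1 replicate 3). Over all tested genes the called share in these fits was 4.16% to 5.76% in D11, 4.21% to 5.77% in WB1 and 2.14% to 3.68% in TD5. It was 3.72% to 5.66% in TD5 against D11 and 1.94% to 3.34% in TD5 against WB1. The median log2 fold change of members was then 0.0897 to 0.155 in TD5 (0.155 without TD5 replicate 2), 0.06 to 0.15 in D11 (0.154 without TPC1 replicate 2), and −0.02 to 0.10 in WB1. The sign of the WB1 median thus turned, without TPC1 replicate 3 (−0.00682), without WB1 replicate 3 (−0.0182) and with median-of-ratios scaling (−0.0303). The cause was not tested.

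The replicate block left the counts at 3 in D11, 4 in WB1, 5 in TD5 and 3 in TD5 against D11, and changed no call with the minimum fold, with SCD in TD5 against D11 at adjusted p = 0.0427. Of the 30 member results past the adjusted p against TPC1, without regard to fold, 28 stayed past it with the block, 22 with GC correction and 15 in every fit that left out 1 library, and of the 17 between clones, 14, 12 and 7 did. EBP in TD5 against WB1 was under 1.5-fold with a pseudocount of 4 (−0.56), with median-of-ratios scaling (−0.57) and without WB1 replicate 1 (−0.58). SREBF1 in TD5 against WB1 was called with that scaling (0.61) and without WB1 replicate 3 (0.69). INSIG2 was called in D11 with a pseudocount of 0.1 (0.60) or voom (0.61). SCD in TD5 against D11 lost its call without the filter on low values (adjusted p = 0.0783). Over all genes in D11, 463 were called higher and 312 lower, and 340 and 363 with median-of-ratios scaling. That scaling took the split from 544 and 255 to 418 and 329 in WB1, from 268 and 372 to 310 and 282 in TD5 against D11, and from 98 and 275 to 130 and 218 in TD5 against WB1. Depth limits TM7SF2 most, at 31 to 50 scaled reads.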
